A study of Mus musculus with 8 samples.

Results

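Macrophage and monocyte identity genes were followed by RNA sequencing through thymic lymphomas of p53-null mice with floxed ΔN alleles of p63 or p73, injected with an adenovirus that did or did not carry Cre. The set was a named list of 41 symbols, which stand for 40 genes because Emr1 and Adgre1 are the same gene. Of these, 37 had an entry under their listed symbol among the 13681 symbols of the table, and 36 entered the test with 12921 genes in all. The member left untested was Marco, a scavenger receptor gene that reached 1 FPKM in 1 library alone. Spi1 and Pirb were measured under the older symbols Sfpi1 and Lilrb3, matched by RefSeq accession; they are described below and not counted among the members. Cd163 was not analysed here.

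All animals were C57BL/6 mice lacking p53, 10 weeks old when virus was injected into the lymphoma, and the tumour tissue was taken 48 hours later. The ΔNp73-labelled group (ΔNp73Δ/Δ;p53-/-, 3 libraries) and the ΔNp63-labelled group (ΔNp63Δ/Δ;p53-/-, 3 libraries) received Ad-CRE-mCherry, an adenovirus carrying Cre recombinase and a red fluorescent marker. The control group (ΔNfl/fl;p53-/-, 2 libraries) received Ad-mCherry, which carries the marker without Cre, and its label leaves unnamed the floxed gene. Control therefore differed from both other groups in virus as well as in genotype, and these cannot be told apart. The labels name neither sex, batch nor pairing. They do not state that each library is its own animal, and the p-values cover the spread among these samples, which may be technical. Values are FPKM (fragment counts divided by transcript length and library size), quantile-normalised by the authors so that all libraries share a distribution; the depth is unknown. Both comparisons with control use the same 2 control libraries.

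Macrophages and monocytes depend on the receptor for colony-stimulating factor 1, encoded by Csf1r, and on the transcription factor PU.1, encoded by Spi1. They bind antibody-coated particles through Fc gamma receptors, whose activating forms signal through the common gamma chain Fcer1g, and they take up lipoproteins, microbes and debris through scavenger receptors. In the thymus, macrophages are known for clearing the many thymocytes that die during selection, a task that uses receptors for phosphatidylserine and its bridging proteins such as Mertk, Axl and Timd4. The list also holds genes that macrophages share with other cells: Itgam and Fcer1g with neutrophils, Itgax with dendritic cells, Vcam1 with stroma and endothelium, and Fcgr2b with B cells.

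Promoters of the Fc receptor genes are shown because Fcgr4 and Fcgr1 gave the largest differences below on the log2(FPKM + 1) scale. Several of these genes are also neighbours. Fcgr2b, Fcgr4 and Fcgr3 follow each other on mouse chromosome 1 with 0 protein-coding genes between them. Fcer1g lies 7 protein-coding genes beyond Fcgr3. Sequences are the 250 bases before the annotated start, from RefSeq on GRCm38.p6, written 5′ to 3′ along the gene. Capitals mark GAGGAA, a core of the site that PU.1 recognises, and TTGCNNAA, a core of the site that C/EBP factors recognise, each on either strand (TTCCTC is GAGGAA read on the other strand).
Fcgr1, chr3:96293970-96294219, minus strand: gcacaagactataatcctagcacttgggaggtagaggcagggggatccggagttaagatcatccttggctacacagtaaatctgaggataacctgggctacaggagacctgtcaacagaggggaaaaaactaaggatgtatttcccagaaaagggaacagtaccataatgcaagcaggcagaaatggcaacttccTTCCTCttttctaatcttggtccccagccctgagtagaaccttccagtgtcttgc
Fcgr2b, chr1:170976072-170976321, minus strand: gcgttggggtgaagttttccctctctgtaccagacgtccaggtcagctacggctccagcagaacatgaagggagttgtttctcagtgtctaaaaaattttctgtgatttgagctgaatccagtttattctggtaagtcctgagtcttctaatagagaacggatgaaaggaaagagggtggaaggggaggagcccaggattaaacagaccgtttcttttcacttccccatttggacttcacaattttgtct
Fcgr4, chr1:171018676-171018925, plus strand: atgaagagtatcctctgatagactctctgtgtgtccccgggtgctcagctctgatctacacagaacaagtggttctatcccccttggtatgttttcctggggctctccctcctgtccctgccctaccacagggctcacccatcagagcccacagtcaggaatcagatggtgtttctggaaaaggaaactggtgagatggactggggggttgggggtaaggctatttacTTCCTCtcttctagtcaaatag
Fcgr3, chr1:171059404-171059653, minus strand: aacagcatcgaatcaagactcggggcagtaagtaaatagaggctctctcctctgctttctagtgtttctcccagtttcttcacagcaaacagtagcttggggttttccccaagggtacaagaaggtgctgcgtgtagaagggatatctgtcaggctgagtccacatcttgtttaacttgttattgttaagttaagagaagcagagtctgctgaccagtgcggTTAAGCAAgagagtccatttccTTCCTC
Fcer1g, chr1:171234350-171234599, minus strand: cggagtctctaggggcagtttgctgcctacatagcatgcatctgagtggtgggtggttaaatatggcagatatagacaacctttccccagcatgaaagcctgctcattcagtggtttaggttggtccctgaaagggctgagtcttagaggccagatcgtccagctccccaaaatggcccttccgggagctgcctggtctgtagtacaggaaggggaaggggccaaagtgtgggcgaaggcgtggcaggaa
GAGGAA lay 49 bases before the start of Fcgr1, 16 bases before that of Fcgr4 and directly at that of Fcgr3, which also held a TTGCNNAA word. The windows of Fcgr2b and Fcer1g held neither word. Promoters were found for 24 member genes, 28 windows in all because some genes have several starts. GAGGAA was in 14 of the 28 windows, belonging to 12 genes, and in 23.3% of the 32851 mouse promoters of the same length. TTGCNNAA was in 4 of the 28 windows, belonging to 3 genes (9.56% of all promoters). TGCTGA, a core of the site of MAF factors, was also in 4, belonging to 3 genes (16.1%). CACGTG, the site of the MITF and TFE factors, was in 0 (6.02%). The windows of Fcgr3 overlap, so its TTGCNNAA and TGCTGA words were each counted in more than 1 window. Both strands were searched, and each word was counted whether or not it overlapped another. A match describes the letters and is not a measured binding site.

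A single library stood apart. Replicate 2 of the ΔNp63-labelled group had a median correlation of 0.847 with the other libraries across genes, against 0.915 to 0.956 for the other 7, and member results of this group are therefore given with and without it. The targeted genes do not settle the labels: the highest of 4 Trp63 entries was at 13.8, 11.3 and 6.38 FPKM in the ΔNp73-labelled libraries, 6.57, 1.05 and 9.91 FPKM in the ΔNp63-labelled libraries and 5.21 and 3.38 FPKM in the controls. There ΔNp63-labelled replicate 2 was the lowest library and replicates 1 and 3 were above both controls. In the other entries replicate 2 was at 0.777, 0.0394 and 0.549 FPKM. In that order replicate 1 was at 3.72, 2.60 and 1.36 FPKM and replicate 3 at 5.91, 3.98 and 0.000168 FPKM. The controls were at 3.44, 4.53 and 1.69 FPKM (replicate 1) and 7.37, 3.71 and 0.0097 FPKM (replicate 2). The ΔNp63-labelled results without replicate 2 thus rest on replicates 1 and 3. Below, the ΔNp63-labelled and ΔNp73-labelled groups are called the deletion groups after their labels. The deletions themselves were not shown by these values. Trp73 was not analysed here. Trp53 RNA was measured in every library. Its higher entry was at 66.1, 75.9 and 10.96 FPKM in the ΔNp73-labelled libraries and 17.3, 16.1 and 46.3 FPKM in the ΔNp63-labelled libraries. In the controls it was at 81.0 and 67.6 FPKM. These RNA values do not settle the p53 genotype, which is taken from the labels. The lineage genes were detected in all groups: 32 of the 37 members, among them Csf1r, Emr1, Cd68 and Mpeg1, were at 1 FPKM or more in every library, as were 77.3% of all symbols.

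Macrophage and monocyte genes lay above control in both deletion groups, and further above it in the ΔNp73-labelled group. The median log2FC of the 36 members (of FPKM + 1) was 1.71 for ΔNp73-labelled against control, where the median of all genes was -0.07, and 0.98 for ΔNp63-labelled against control, where it was -0.02. All 36 had a log2FC above 0 in both comparisons, as did 43.3% of all genes in the ΔNp73-labelled comparison and 47.7% in the ΔNp63-labelled one. The ΔNp73-labelled libraries did not overlap with the controls for any of the 36 (27.7% of all genes were higher in this way). The ΔNp63-labelled libraries lay wholly above the controls for 21 of them (12.6% of all genes), and without replicate 2 for 35, all but Trem2 (31.9% of all genes). Fewer macrophages in the controls and less RNA per macrophage cannot be told apart in bulk tissue.

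By limma over all 12921 genes, 0 of the 36 members passed an adjusted p of 0.05 in either comparison with control, where 7 genes (0.0542%) passed for ΔNp73-labelled and 12 genes (0.0929%) for ΔNp63-labelled. At an unadjusted p under 0.05, 33 of 36 members were higher in the ΔNp73-labelled group (11.4% of all genes), the exceptions being Apoe, Timd4 and Trem2. In the ΔNp63-labelled group 19 of 36 were higher at that level (5.96% of all genes). The members' adjusted p ran from 0.0597 to 0.526 for ΔNp73-labelled and from 0.131 to 0.860 for ΔNp63-labelled. Arg1, Fcgr4 and Msr1 entered the test through the deletion groups alone, being below 1 FPKM in both controls, so the filter favoured values above control. Without these 3, the counts at an unadjusted p under 0.05 were 30 and 16 of 33, and the medians were 1.57 and 0.92.

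**Figure D1:**
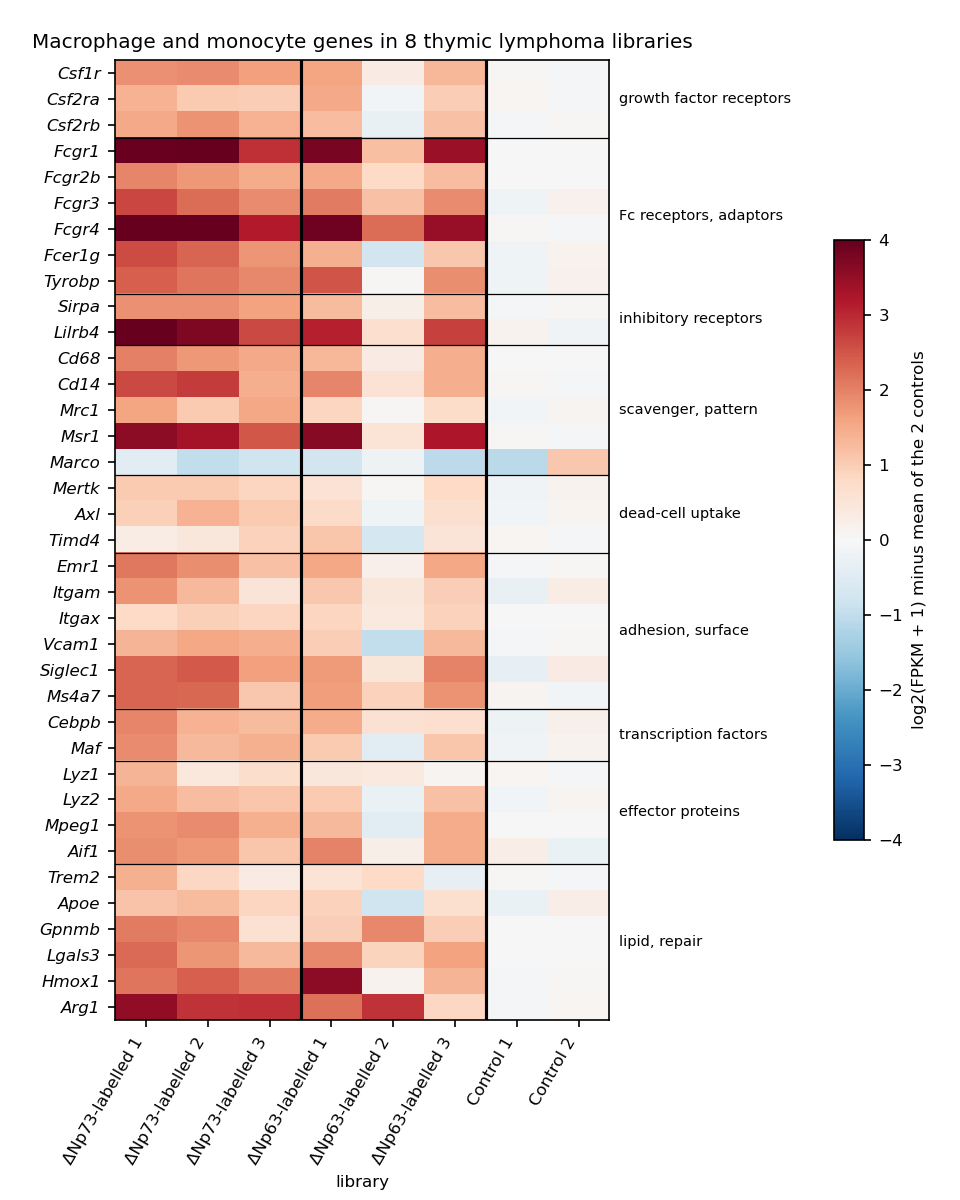
Rows are the 37 members by role, columns the 8 libraries, and colour is log2(FPKM + 1) minus the mean of the 2 controls, cut off at -4 and 4. The 3 ΔNp73-labelled libraries are above the controls in 36 rows, ΔNp63-labelled replicates 1 and 3 come next, and ΔNp63-labelled replicate 2 lies near or below the controls in many rows.

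Without ΔNp63-labelled replicate 2 most members rose in both comparisons. The fit on the other 7 libraries (12782 genes) called 34 of 36 members higher in the ΔNp73-labelled group, where it called 16.8% of all genes higher, and the exceptions were Timd4 and Trem2. It called 30 of 36 higher in the ΔNp63-labelled group, where it called 11.7% of all genes higher, and the exceptions were Cebpb, Gpnmb, Itgam, Lyz1, Timd4 and Trem2. Without the 3 members that passed through the deletion groups alone, these counts were 31 and 27 of 33. Without replicate 2 the median log2FC of the members in the ΔNp63-labelled group was 1.32. Leaving out any other library instead called 0 members in either comparison, and replicate 2 was set apart by its correlation in these same data. The difference of the ΔNp73-labelled group from control has the same value with and without that library, and only its standard error changes: for Csf1r the SE was 0.12 without it, against 0.34 with it.

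That library was low within its group for most members. It was below both other ΔNp63-labelled libraries for 32 of 36 members (47.7% of all genes) and above both for Arg1, Gpnmb and Trem2 (42.5% of all genes). It was below both controls for 10 members (47.2% of all genes): Apoe, Axl, Csf2ra, Csf2rb, Fcer1g, Lyz2, Maf, Mpeg1, Timd4 and Vcam1. It was above both controls for 22 (42.5% of all genes), Fcgr1, Fcgr2b, Fcgr3 and Fcgr4 among them. Within the ΔNp73-labelled group, replicate 3 was the lowest for 28 members (30.2% of all genes), and replicate 1 was the highest of all 8 libraries for 18 (13.7% of all genes).

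The growth factor receptors were higher in all ΔNp73-labelled libraries than in the controls. Csf1r, the receptor that macrophages need to survive, was at 35.2, 36.5 and 31.01 FPKM in the ΔNp73-labelled libraries, 29.4, 11.9 and 24.6 FPKM in the ΔNp63-labelled libraries and 9.46 and 8.99 FPKM in the controls. The 3 groups of Csf1r values did not overlap, and ΔNp63-labelled replicate 2 came closest to the controls. For Csf1r the log2FC against control was 1.78 (SE 0.34, limma adjusted p = 0.0787) in the ΔNp73-labelled group and 1.08 (SE 0.34, adjusted p = 0.285) in the ΔNp63-labelled group; without replicate 2 the ΔNp63-labelled value was 1.45 (SE 0.13, adjusted p = 0.00176). Csf2rb, the shared signalling chain of the receptors for GM-CSF, IL-3 and IL-5, was at 21.9, 26.5 and 19.7 FPKM in the ΔNp73-labelled libraries, 17.7, 5.52 and 17.02 FPKM in the ΔNp63-labelled libraries and 6.68 and 7.23 FPKM in the controls. Its ΔNp63-labelled replicates 1 and 3 stood above the controls and replicate 2 below them. Csf2rb had a log2FC against control of 1.57 (SE 0.44, limma adjusted p = 0.122) in the ΔNp73-labelled group and 0.71 (SE 0.44, adjusted p = 0.528) in the ΔNp63-labelled group, and 1.21 (SE 0.14, adjusted p = 0.00268) without replicate 2. Csf2rb shares 17.1% of its 50-base words with the neighbouring gene Csf2rb2, so reads may have been split between them. Csf2ra, the GM-CSF-specific chain, was at 14.2, 11.1 and 10.5 FPKM in the ΔNp73-labelled libraries, 15.6, 4.37 and 10.5 FPKM in the ΔNp63-labelled libraries and 5.20 and 4.50 FPKM in the controls. The ΔNp73-labelled and ΔNp63-labelled values of Csf2ra overlapped, with ΔNp63-labelled replicate 1 the highest of all. Against control, Csf2ra had a log2FC of 1.13 (SE 0.43, limma adjusted p = 0.197) in the ΔNp73-labelled group and 0.79 (SE 0.43, adjusted p = 0.473) in the ΔNp63-labelled group, and 1.24 (SE 0.21, adjusted p = 0.00806) without replicate 2.

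On the log2(FPKM + 1) scale, Fc gamma receptors held the 2 largest differences of the list. This order depended on the scale. By the ratio of mean FPKM in the ΔNp73-labelled group to control, Fcgr4 was at 43.0, Arg1 at 26.2 and Fcgr1 at 23.0. Fcgr4, which binds IgG2 antibodies with intermediate affinity, was at 30.1, 25.6 and 12.9 FPKM in the ΔNp73-labelled libraries, 21.8, 6.17 and 16.1 FPKM in the ΔNp63-labelled libraries and 0.592 and 0.472 FPKM in the controls. Every deletion-group library had over 6 FPKM of Fcgr4, and both controls were under 1 FPKM. For Fcgr4 the log2FC against control was 3.88 (SE 0.52, limma adjusted p = 0.0597) in the ΔNp73-labelled group and 3.20 (SE 0.52, adjusted p = 0.131) in the ΔNp63-labelled group, the largest difference of any member in both comparisons and the smallest adjusted p in the ΔNp73-labelled one. Without replicate 2 the ΔNp63-labelled value of Fcgr4 was 3.69 (SE 0.36, adjusted p = 0.00186). Fcgr1, the high-affinity IgG receptor, was described in full after its values were seen, because it is the other receptor near the floor in control: it was at 33.6, 35.6 and 16.1 FPKM in the ΔNp73-labelled libraries, 30.3, 4.18 and 23.3 FPKM in the ΔNp63-labelled libraries and 1.25 and 1.22 FPKM in the controls. ΔNp73-labelled replicate 3 and ΔNp63-labelled replicate 2 were the lowest deletion-group libraries for both Fcgr1 and Fcgr4. For Fcgr1 the fit gave a log2FC of 3.64 (SE 0.74, limma adjusted p = 0.0824) in the ΔNp73-labelled group and 2.82 (SE 0.74, adjusted p = 0.236) in the ΔNp63-labelled group, and 3.63 (SE 0.35, adjusted p = 0.00186) for ΔNp63-labelled without replicate 2.

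Fcgr3, the low-affinity activating receptor, was at 68.9, 50.95 and 39.9 FPKM in the ΔNp73-labelled libraries, 45.8, 23.9 and 39.9 FPKM in the ΔNp63-labelled libraries and 8.71 and 11.5 FPKM in the controls. It was above both controls in all 6 deletion-group libraries, replicate 2 included. Fcgr3 had a log2FC against control of 2.27 (SE 0.33, limma adjusted p = 0.067) in the ΔNp73-labelled group and 1.72 (SE 0.33, adjusted p = 0.164) in the ΔNp63-labelled group, and 1.99 (SE 0.25, adjusted p = 0.00309) without replicate 2. Fcgr3 shares 10.2% of its 50-base words with Fcgr2b, the inhibitory receptor, which had a log2FC of 1.72 and 1.19 in the same comparisons and 1.38 for ΔNp63-labelled without replicate 2, so how reads divide between these genes is uncertain. Fcer1g, the gamma chain that carries the signal of the activating receptors, was at 280.5, 233 and 158 FPKM in the ΔNp73-labelled libraries, 122.3, 27.04 and 97.8 FPKM in the ΔNp63-labelled libraries and 40.96 and 50.1 FPKM in the controls. Its 3 groups separated except for ΔNp63-labelled replicate 2, which was below both controls. Against control, Fcer1g had a log2FC of 2.24 (SE 0.60, limma adjusted p = 0.117) in the ΔNp73-labelled group and 0.59 (SE 0.60, adjusted p = 0.723) in the ΔNp63-labelled group, and 1.25 (SE 0.27, adjusted p = 0.0186) without replicate 2. Tyrobp, the adaptor DAP12 of TREM2 and related receptors, was at 198, 169 and 144.03 FPKM in the ΔNp73-labelled libraries, 217, 38.9 and 136.7 FPKM in the ΔNp63-labelled libraries and 33.2 and 41.96 FPKM in the controls. ΔNp63-labelled replicate 1 was the highest library for Tyrobp, and replicate 2 lay between the controls. For Tyrobp the log2FC against control was 2.15 (SE 0.63, limma adjusted p = 0.13) in the ΔNp73-labelled group and 1.47 (SE 0.63, adjusted p = 0.385) in the ΔNp63-labelled group, and 2.18 (SE 0.25, adjusted p = 0.00243) without replicate 2.

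Of the 7 protein-coding genes between Fcgr3 and Fcer1g, 3 were tested. Sdhc, a subunit of succinate dehydrogenase, had a log2FC of -0.21 (limma adjusted p = 0.517) in the ΔNp73-labelled group and 0.05 (adjusted p = 0.938) in the ΔNp63-labelled group. Pcp4l1 was at 0.21 and -0.14, and Tomm40l at -0.36 and -0.07, in the same order of comparisons. For ΔNp63-labelled without replicate 2 they were at -0.04 (Sdhc), -0.21 (Pcp4l1) and -0.26 (Tomm40l); the difference between these genes and the Fc receptor genes was not tested.

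Of the inhibitory receptors, Sirpa, which reads the CD47 signal on other cells, was at 44.4, 44.7 and 38.3 FPKM in the ΔNp73-labelled libraries, 29.9, 14.2 and 29.5 FPKM in the ΔNp63-labelled libraries and 11.4 and 12.4 FPKM in the controls. The 3 groups of Sirpa values did not overlap. Sirpa had a log2FC against control of 1.75 (SE 0.31, limma adjusted p = 0.0787) in the ΔNp73-labelled group and 0.92 (SE 0.31, adjusted p = 0.306) in the ΔNp63-labelled group, and 1.25 (SE 0.11, adjusted p = 0.00176) without replicate 2. Lilrb4, a receptor with inhibitory motifs on myeloid cells, was at 68.7, 50.5 and 23.5 FPKM in the ΔNp73-labelled libraries, 32.8, 5.17 and 24.8 FPKM in the ΔNp63-labelled libraries and 3.29 and 2.56 FPKM in the controls. All 6 deletion-group libraries of Lilrb4 were above the controls, over a wide range. Against control, Lilrb4 had a log2FC of 3.51 (SE 0.74, limma adjusted p = 0.0861) in the ΔNp73-labelled group and 2.17 (SE 0.74, adjusted p = 0.31) in the ΔNp63-labelled group, and 2.92 (SE 0.44, adjusted p = 0.00561) without replicate 2. Lilrb4 shares 28.4% of its words with its neighbour Lilr4b, and its level is uncertain for that reason. Pirb, measured as Lilrb3 and related to both, was at 26.3, 21.2 and 13.9 FPKM in the ΔNp73-labelled libraries, 16.4, 2.43 and 14.2 FPKM in the ΔNp63-labelled libraries and 2.22 and 2.97 FPKM in the controls. Pirb was higher in the ΔNp73-labelled libraries than in the controls, while ΔNp63-labelled replicate 2 lay between the controls; the log2FC values were 2.54 (limma adjusted p = 0.113) and 1.44 (adjusted p = 0.417), and for ΔNp63-labelled without replicate 2 2.19 (adjusted p = 0.00295).

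Scavenger and pattern receptors covered a wide range of differences. Cd68, a lysosomal glycoprotein used as a general macrophage marker, was at 114.5, 92.3 and 79.4 FPKM in the ΔNp73-labelled libraries, 70.03, 34.9 and 77.1 FPKM in the ΔNp63-labelled libraries and 27.4 and 27.3 FPKM in the controls. Cd68 was above control in every deletion-group library, and the ΔNp73-labelled libraries were above all ΔNp63-labelled ones. For Cd68 the log2FC against control was 1.75 (SE 0.34, limma adjusted p = 0.0787) in the ΔNp73-labelled group and 1.04 (SE 0.34, adjusted p = 0.294) in the ΔNp63-labelled group, and 1.39 (SE 0.17, adjusted p = 0.00279) without replicate 2. Msr1, the class A scavenger receptor for modified lipoproteins, was at 22.05, 18.5 and 9.76 FPKM in the ΔNp73-labelled libraries, 22.98, 1.86 and 17.3 FPKM in the ΔNp63-labelled libraries and 0.991 and 0.887 FPKM in the controls. ΔNp63-labelled replicate 2 was close to the controls for Msr1, and the other 5 deletion-group libraries were far above them. Msr1 had a log2FC against control of 3.13 (SE 0.85, limma adjusted p = 0.119) in the ΔNp73-labelled group and 2.48 (SE 0.85, adjusted p = 0.311) in the ΔNp63-labelled group, and 3.43 (SE 0.34, adjusted p = 0.0019) without replicate 2. Mrc1, the mannose receptor of tissue macrophages, was at 15.6, 10.4 and 15.1 FPKM in the ΔNp73-labelled libraries, 9.10, 4.70 and 8.13 FPKM in the ΔNp63-labelled libraries and 4.11 and 4.97 FPKM in the controls. The Mrc1 values of the deletion groups did not overlap each other, and ΔNp63-labelled replicate 2 lay between the controls. Against control, Mrc1 had a log2FC of 1.39 (SE 0.28, limma adjusted p = 0.0824) in the ΔNp73-labelled group and 0.55 (SE 0.28, adjusted p = 0.461) in the ΔNp63-labelled group, and 0.80 (SE 0.20, adjusted p = 0.0297) without replicate 2. Cd14, the co-receptor for bacterial lipopolysaccharide, had a log2FC of 2.30 and 1.33, and 1.71 for ΔNp63-labelled without replicate 2. Marco, the untested scavenger receptor gene, was at 0.655, 0.163 and 0.305 FPKM in the ΔNp73-labelled libraries, 0.364, 0.992 and 0.0984 FPKM in the ΔNp63-labelled libraries and 0.0924 and 3.79 FPKM in the controls, and control replicate 2 was its highest library.

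Receptors for dead cells had the smallest median difference from control of any role. Mertk, a receptor tyrosine kinase that binds apoptotic cells through bridging proteins, was at 5.39, 5.46 and 4.69 FPKM in the ΔNp73-labelled libraries, 3.69, 2.26 and 4.40 FPKM in the ΔNp63-labelled libraries and 1.85 and 2.43 FPKM in the controls. Its ΔNp73-labelled libraries were all above the other 5. For Mertk the log2FC against control was 0.98 (SE 0.23, limma adjusted p = 0.1) in the ΔNp73-labelled group and 0.48 (SE 0.23, adjusted p = 0.432) in the ΔNp63-labelled group, and 0.69 (SE 0.14, adjusted p = 0.0176) without replicate 2. Axl, of the same receptor family, was at 16.7, 22.7 and 17.7 FPKM in the ΔNp73-labelled libraries, 14.4, 7.13 and 13.2 FPKM in the ΔNp63-labelled libraries and 7.41 and 8.89 FPKM in the controls. ΔNp63-labelled replicate 2 was below both controls for Axl. Axl had a log2FC against control of 1.12 (SE 0.29, limma adjusted p = 0.111) in the ΔNp73-labelled group and 0.41 (SE 0.29, adjusted p = 0.584) in the ΔNp63-labelled group, and 0.69 (SE 0.16, adjusted p = 0.0263) without replicate 2. Timd4, a phosphatidylserine receptor of resident macrophages, was at 13.03, 14.5 and 20.5 FPKM in the ΔNp73-labelled libraries, 23.4, 5.94 and 15.4 FPKM in the ΔNp63-labelled libraries and 10.95 and 9.85 FPKM in the controls. Timd4 had its highest and its lowest library in the same group, ΔNp63-labelled. Against control, Timd4 had a log2FC of 0.56 (SE 0.48, limma adjusted p = 0.526) in the ΔNp73-labelled group and 0.30 (SE 0.48, adjusted p = 0.834) in the ΔNp63-labelled group, the smallest difference of any member in the ΔNp73-labelled group; without ΔNp63-labelled replicate 2 the ΔNp63-labelled value was 0.81 (SE 0.25, adjusted p = 0.0585).

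**Figure D2:**
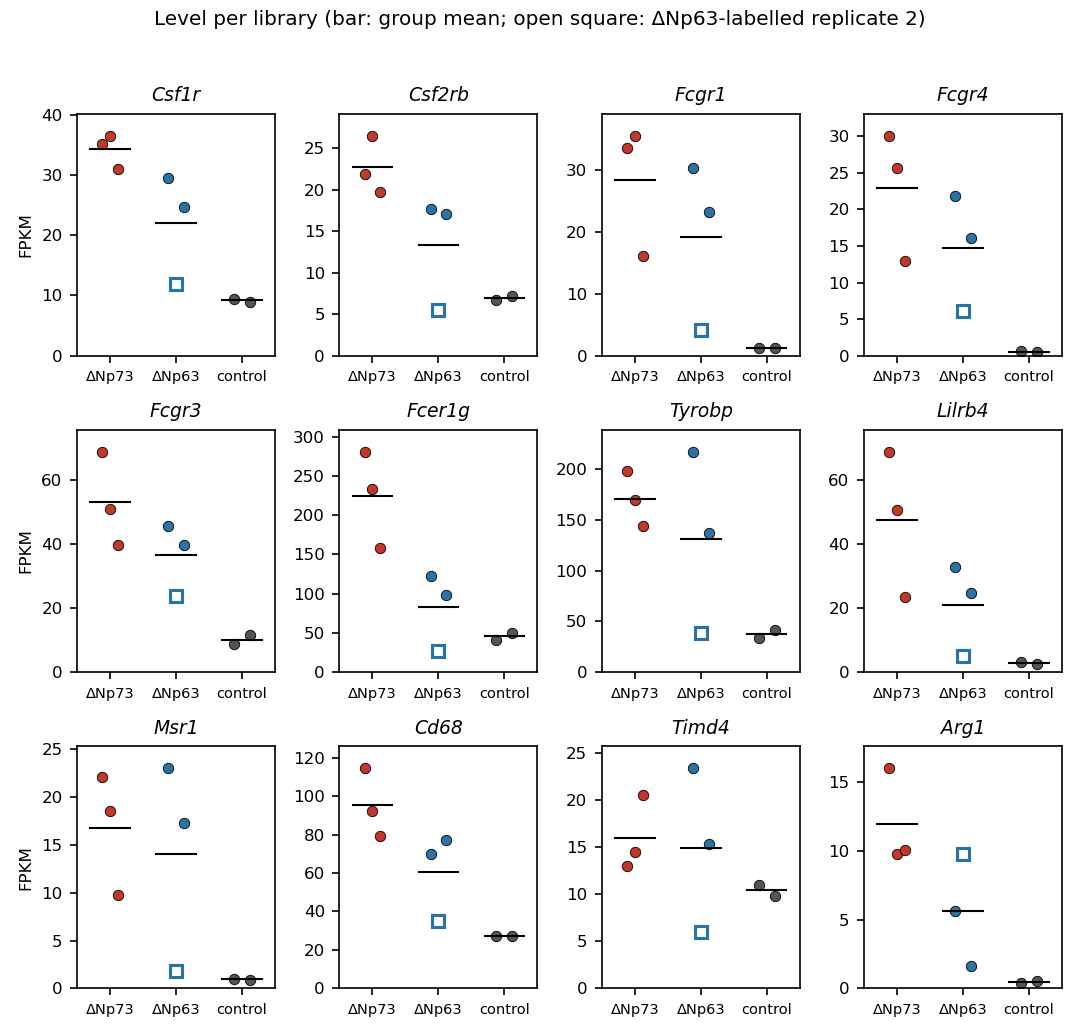
Each panel gives FPKM (linear axis from 0) for a member, with a point per library, a bar at the group mean and an open square for ΔNp63-labelled replicate 2. Fcgr1, Fcgr4, Msr1 and Arg1 were near 0 in the controls, while Cd68, Csf1r and Timd4 were at 8.99 to 27.4 FPKM there.

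Among surface and adhesion genes, Vcam1, which binds the integrin VLA4 and marks stroma as well as macrophages, was at 113.3, 129.8 and 121.1 FPKM in the ΔNp73-labelled libraries, 87.4, 21.7 and 109.3 FPKM in the ΔNp63-labelled libraries and 41.8 and 45.2 FPKM in the controls. The ΔNp73-labelled libraries were close together for Vcam1, and ΔNp63-labelled replicate 2 was the lowest library. For Vcam1 the log2FC against control was 1.46 (SE 0.60, limma adjusted p = 0.222) in the ΔNp73-labelled group and 0.44 (SE 0.60, adjusted p = 0.799) in the ΔNp63-labelled group, and 1.15 (SE 0.14, adjusted p = 0.00265) without replicate 2. Ms4a7, a membrane protein of mature macrophages, was at 50.1, 48.7 and 20.2 FPKM in the ΔNp73-labelled libraries, 30.9, 18.2 and 34.4 FPKM in the ΔNp63-labelled libraries and 9.81 and 8.45 FPKM in the controls. All deletion-group libraries of Ms4a7 were above the controls. Ms4a7 had a log2FC against control of 1.90 (SE 0.43, limma adjusted p = 0.0962) in the ΔNp73-labelled group and 1.46 (SE 0.43, adjusted p = 0.263) in the ΔNp63-labelled group, and 1.73 (SE 0.40, adjusted p = 0.0237) without replicate 2. Emr1, the F4/80 antigen, was at 21.3, 17.8 and 10.6 FPKM in the ΔNp73-labelled libraries, 13.9, 4.86 and 13.9 FPKM in the ΔNp63-labelled libraries and 4.003 and 4.25 FPKM in the controls. Its ΔNp63-labelled replicate 2 was just above the controls. Against control, Emr1 had a log2FC of 1.72 (SE 0.45, limma adjusted p = 0.113) in the ΔNp73-labelled group and 1.09 (SE 0.45, adjusted p = 0.373) in the ΔNp63-labelled group, and 1.54 (SE 0.28, adjusted p = 0.0103) without replicate 2. The other members of this role were Siglec1 (sialoadhesin), Itgam (CD11b) and Itgax (CD11c), with log2FC values of 2.13, 1.20 and 0.87 in the ΔNp73-labelled group and 1.40, 0.84 and 0.71 in the ΔNp63-labelled group; without replicate 2 the ΔNp63-labelled values were 1.85, 1.03 and 0.88.

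Neither of the 2 transcription factors of the list passed with all libraries. Maf, a regulator of resident macrophages that T cells also express, was at 47.6, 30.9 and 34.1 FPKM in the ΔNp73-labelled libraries, 26.2, 8.57 and 26.9 FPKM in the ΔNp63-labelled libraries and 10.9 and 13.3 FPKM in the controls. Its ΔNp63-labelled replicate 2 was below both controls. For Maf the log2FC against control was 1.53 (SE 0.46, limma adjusted p = 0.139) in the ΔNp73-labelled group and 0.57 (SE 0.46, adjusted p = 0.642) in the ΔNp63-labelled group, and 1.08 (SE 0.20, adjusted p = 0.0123) without replicate 2. Cebpb, a factor of inflammatory and monocyte genes, was at 8.79, 5.62 and 5.001 FPKM in the ΔNp73-labelled libraries, 6.08, 2.83 and 3.02 FPKM in the ΔNp63-labelled libraries and 1.20 and 1.88 FPKM in the controls. Replicate 2 was not far from replicate 3 of its group for Cebpb, and both were above the controls. Cebpb had a log2FC against control of 1.54 (SE 0.33, limma adjusted p = 0.0886) in the ΔNp73-labelled group and 0.92 (SE 0.33, adjusted p = 0.323) in the ΔNp63-labelled group, and 1.08 (SE 0.33, adjusted p = 0.0548) without replicate 2, which did not pass. Spi1, measured as Sfpi1, was at 43.5, 44.96 and 33.1 FPKM in the ΔNp73-labelled libraries, 40.5, 9.23 and 31.5 FPKM in the ΔNp63-labelled libraries and 9.66 and 9.59 FPKM in the controls. Spi1 was above control in 5 of the 6 deletion-group libraries and just below both controls in ΔNp63-labelled replicate 2; its log2FC was 1.95 (limma adjusted p = 0.12) in the ΔNp73-labelled group and 1.17 (adjusted p = 0.413) in the ΔNp63-labelled group, and 1.79 (adjusted p = 0.00197) for ΔNp63-labelled without replicate 2.

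Of the effector genes, Lyz2, the lysozyme of macrophages and neutrophils, was at 521, 430.1 and 394 FPKM in the ΔNp73-labelled libraries, 377, 151 and 412 FPKM in the ΔNp63-labelled libraries and 169 and 199 FPKM in the controls. ΔNp63-labelled replicate 2 was below both controls for Lyz2. Against control, Lyz2 had a log2FC of 1.27 (SE 0.42, limma adjusted p = 0.157) in the ΔNp73-labelled group and 0.64 (SE 0.42, adjusted p = 0.55) in the ΔNp63-labelled group, and 1.10 (SE 0.16, adjusted p = 0.00547) without replicate 2. Lyz1 shares 16.1% of its words with Lyz2 and is uncertain; its log2FC was 0.82 and 0.32, and 0.28 for ΔNp63-labelled without replicate 2. Mpeg1, the pore-forming perforin-2, was at 127.8, 134.7 and 98.2 FPKM in the ΔNp73-labelled libraries, 90.1, 25.8 and 100.9 FPKM in the ΔNp63-labelled libraries and 36.2 and 35.4 FPKM in the controls. As for Lyz2, ΔNp63-labelled replicate 2 was the lowest of the 8 libraries. For Mpeg1 the log2FC against control was 1.71 (SE 0.53, limma adjusted p = 0.144) in the ΔNp73-labelled group and 0.77 (SE 0.53, adjusted p = 0.574) in the ΔNp63-labelled group, and 1.39 (SE 0.16, adjusted p = 0.00256) without replicate 2. Aif1, the calcium-binding protein IBA1, was at 35.9, 32.9 and 21.3 FPKM in the ΔNp73-labelled libraries, 39.7, 11.1 and 27.5 FPKM in the ΔNp63-labelled libraries and 11.3 and 7.49 FPKM in the controls. Its highest library was ΔNp63-labelled replicate 1. Aif1 had a log2FC against control of 1.57 (SE 0.50, limma adjusted p = 0.147) in the ΔNp73-labelled group and 1.24 (SE 0.50, adjusted p = 0.359) in the ΔNp63-labelled group, and 1.74 (SE 0.30, adjusted p = 0.00887) without replicate 2.

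Genes of lipid handling and repair varied widely within the ΔNp63-labelled group. Apoe, the lipoprotein that carries cholesterol out of macrophages, had the highest level per length of any member, at 1341, 1479 and 1122 FPKM in the ΔNp73-labelled libraries, 1158, 357 and 965 FPKM in the ΔNp63-labelled libraries and 513 and 734 FPKM in the controls. Its ΔNp73-labelled libraries were above all other libraries except that ΔNp63-labelled replicate 1 was above ΔNp73-labelled replicate 3. Against control, Apoe had a log2FC of 1.09 (SE 0.48, limma adjusted p = 0.247) in the ΔNp73-labelled group and 0.26 (SE 0.48, adjusted p = 0.86) in the ΔNp63-labelled group, the smallest difference of any member in the ΔNp63-labelled group, and 0.78 (SE 0.22, adjusted p = 0.0437) without replicate 2. Hmox1, which degrades haem, was at 54.6, 65.97 and 52.04 FPKM in the ΔNp73-labelled libraries, 150.2, 12.9 and 31.2 FPKM in the ΔNp63-labelled libraries and 11.4 and 11.9 FPKM in the controls. ΔNp63-labelled replicate 1 stood far above all other libraries for Hmox1. For Hmox1 the log2FC against control was 2.20 (SE 0.84, limma adjusted p = 0.202) in the ΔNp73-labelled group and 1.69 (SE 0.84, adjusted p = 0.446) in the ΔNp63-labelled group, and 2.46 (SE 0.61, adjusted p = 0.0297) without replicate 2. Lgals3, the lectin galectin-3, was at 50.7, 35.6 and 24.97 FPKM in the ΔNp73-labelled libraries, 39.2, 18.8 and 31.8 FPKM in the ΔNp63-labelled libraries and 9.63 and 9.74 FPKM in the controls. Every deletion-group library of Lgals3 was above both controls. Lgals3 had a log2FC against control of 1.78 (SE 0.36, limma adjusted p = 0.0824) in the ΔNp73-labelled group and 1.47 (SE 0.36, adjusted p = 0.222) in the ΔNp63-labelled group, and 1.77 (SE 0.29, adjusted p = 0.0074) without replicate 2. Arg1, the arginase of alternatively activated macrophages, was at 16.03, 9.77 and 10.1 FPKM in the ΔNp73-labelled libraries, 5.64, 9.76 and 1.60 FPKM in the ΔNp63-labelled libraries and 0.386 and 0.527 FPKM in the controls. ΔNp63-labelled replicate 2, low for most members, was the highest of its group for Arg1. Against control, Arg1 had a log2FC of 3.12 (SE 0.54, limma adjusted p = 0.0766) in the ΔNp73-labelled group and 1.97 (SE 0.54, adjusted p = 0.248) in the ΔNp63-labelled group, and 1.51 (SE 0.42, adjusted p = 0.0437) without replicate 2. Gpnmb, a lysosomal glycoprotein, and Trem2, a lipid-sensing receptor, had log2FC values of 1.55 and 0.85 in the ΔNp73-labelled group and 1.29 and 0.33 in the ΔNp63-labelled group; without replicate 2 the ΔNp63-labelled values were 0.98 and 0.11.

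**Figure D3:**
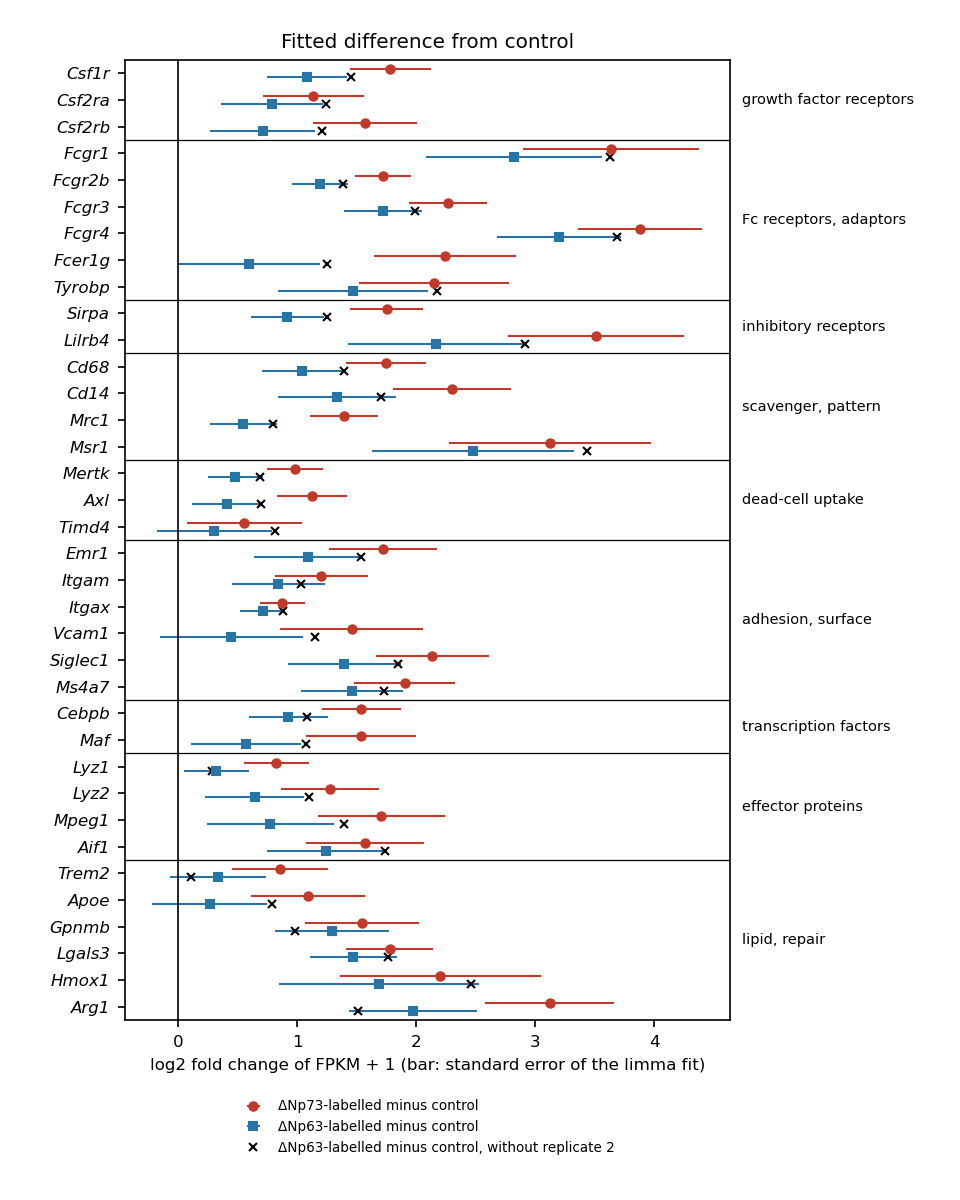
Fitted log2FC of FPKM + 1 against control for the 36 tested members, with the standard error of the limma fit as a bar: circles for ΔNp73-labelled, squares for ΔNp63-labelled and crosses for ΔNp63-labelled without replicate 2. All points lie above 0, and Fcgr1, Fcgr4, Lilrb4 and Msr1 lie farthest to the right in the ΔNp73-labelled comparison.

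The roles differed in the size of their median difference from control, which includes Fcgr4, Msr1 and Arg1. For ΔNp73-labelled against control the median log2FC was 2.63 for the 2 inhibitory receptors, 2.25 for the 6 Fc receptors and adaptors, 2.02 for the 4 scavenger and pattern receptors, 1.66 for the 6 lipid and repair genes, 1.59 for the 6 surface genes, 1.57 for the 3 growth factor receptors, 1.54 for the 2 transcription factors, 1.42 for the 4 effector genes and 0.98 for the 3 dead-cell receptors. For ΔNp63-labelled against control it was 1.54, 1.59, 1.19, 1.38, 0.97, 0.79, 0.75, 0.71 and 0.41 in the same order of roles. Without replicate 2 it was 2.09, 2.08, 1.55, 1.25, 1.34, 1.24, 1.08, 1.24 and 0.69. These medians were not tested against each other. Where a member had more than 1 transcript entry (7 members, 16 entries), the ΔNp73-labelled libraries were above the controls without overlap for all 16 entries and the ΔNp63-labelled libraries for 12, or 15 without replicate 2. Over the 4970 entries of all tested genes with more than 1, these shares were 20.3%, 10.7% and 24.1%.

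Between the deletion groups, members had higher log2 values in the ΔNp73-labelled group, but by less than the spread allowed a call. All 36 had a log2FC above 0 for ΔNp73-labelled against ΔNp63-labelled (48.1% of all genes), with a median of 0.67, where the median of all genes was -0.02. For Hmox1 the mean FPKM went the other way, at 57.5 in the ΔNp73-labelled group and 64.8 in the ΔNp63-labelled group. By limma 0 of 36 passed (adjusted p 0.439 to 0.766; 0.0542% of all genes passed), 8 were higher at an unadjusted p under 0.05 (6.11% of all genes), and 11 did not overlap (10.3% of all genes). The 11 were Arg1, Axl, Cd68, Csf1r, Csf2rb, Fcer1g, Maf, Mertk, Mrc1, Sirpa and Vcam1. The largest of these differences was Fcer1g, with a log2FC of 1.65 (SE 0.54, limma adjusted p = 0.439), and the smallest of the 36 was Itgax at 0.16 (SE 0.17).

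Much of this difference moved with ΔNp63-labelled replicate 2. Without it the median was 0.31, 29 of 36 members were above 0 (48.9% of all genes), and 0 passed by limma (0.149% of all genes passed) with 9 higher at an unadjusted p under 0.05 (8.16% of all genes). Aif1, Csf2ra, Hmox1, Itgax, Msr1, Timd4 and Tyrobp were then below 0. Fcer1g was at 0.99 (SE 0.24, adjusted p = 0.158) and Mrc1 at 0.60 (SE 0.18, adjusted p = 0.202). A missed threshold does not show that the groups were alike.

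Scaling each member to Csf1r in the same library asked whether members moved in step with each other. Fcgr1 per Csf1r was 0.953, 0.976 and 0.518 in the ΔNp73-labelled libraries, 1.03, 0.351 and 0.945 in the ΔNp63-labelled libraries and 0.132 and 0.136 in the controls. Fcgr4 per Csf1r was 0.854, 0.702 and 0.417 in the ΔNp73-labelled libraries, 0.742, 0.519 and 0.652 in the ΔNp63-labelled libraries and 0.0626 and 0.0525 in the controls. Both ratios were above the controls in every deletion-group library, replicate 2 included, so these receptors exceeded control by more than Csf1r did. In this way 8 of 35 members had a higher ratio in the ΔNp73-labelled group without overlap (1.45% of genes), namely Fcgr1, Fcgr3, Fcgr4, Lilrb4, Cd14, Msr1, Hmox1 and Arg1. In the ΔNp63-labelled group 9 did (1.18% of genes), namely Fcgr1, Fcgr3, Fcgr4, Lilrb4, Cd14, Msr1, Ms4a7, Lgals3 and Arg1, and 11 without replicate 2 (2.4% of genes). Fcgr4, Msr1 and Arg1 entered these counts through the deletion groups alone; without them the counts were 5, 6 and 8 of 32.

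Several members had a lower ratio than in control, as did most genes. Timd4 per Csf1r was 0.370, 0.397 and 0.662 in the ΔNp73-labelled libraries, 0.795, 0.500 and 0.623 in the ΔNp63-labelled libraries and 1.16 and 1.10 in the controls. Axl per Csf1r was 0.473, 0.623 and 0.571 in the ΔNp73-labelled libraries, 0.488, 0.599 and 0.534 in the ΔNp63-labelled libraries and 0.784 and 0.989 in the controls. Apoe per Csf1r was 38.1, 40.5 and 36.2 in the ΔNp73-labelled libraries, 39.4, 29.97 and 39.2 in the ΔNp63-labelled libraries and 54.3 and 81.7 in the controls. These 3 ratios were below both controls in all 6 deletion-group libraries. The ratio was lower without overlap for 11 of 35 members in the ΔNp73-labelled group (92.6% of genes, since most genes did not exceed control as Csf1r did) and for 10 in the ΔNp63-labelled group (62.0% of genes), or 14 without replicate 2 (92.2% of genes). Mertk, Axl, Timd4, Lyz2 and Apoe were in all 3 of these sets. Cd68 per Csf1r was 3.25, 2.53 and 2.56 in the ΔNp73-labelled libraries, 2.38, 2.94 and 3.13 in the ΔNp63-labelled libraries and 2.89 and 3.04 in the controls, and its groups overlapped. The ratios are a description, with no test, and share the Csf1r value of each library.

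**Figure D4:**
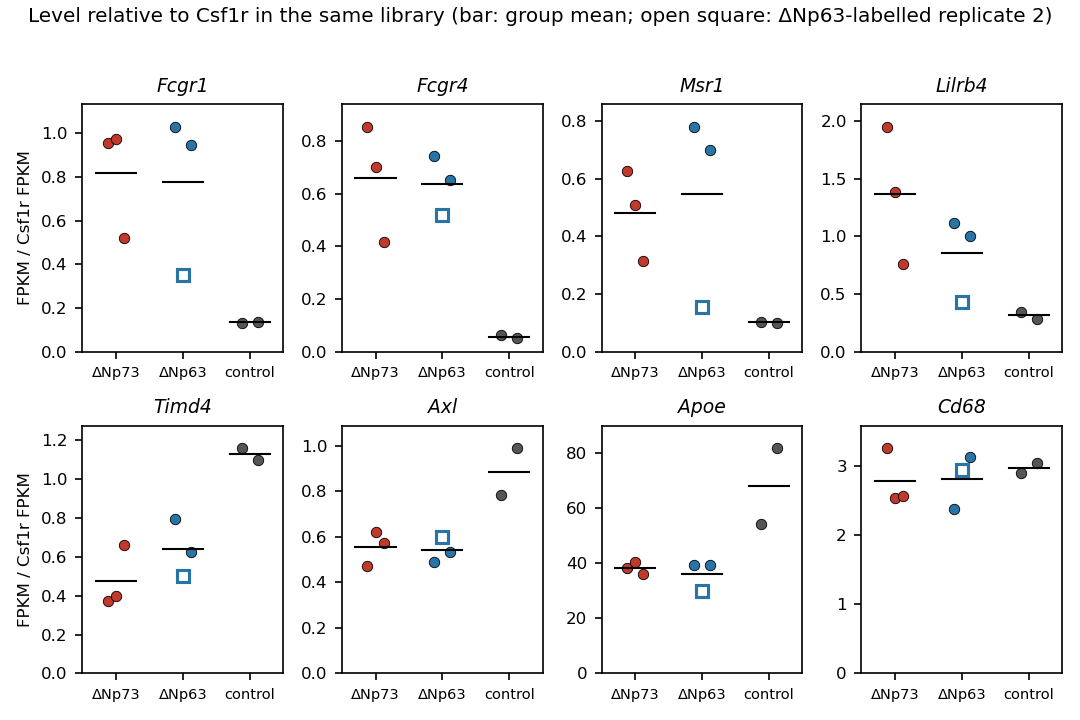
Each panel gives a member's FPKM divided by the Csf1r FPKM of the same library (linear axis from 0), with a point per library, a bar at the group mean and an open square for ΔNp63-labelled replicate 2. Fcgr1, Fcgr4, Msr1 and Lilrb4 were higher than control in both deletion groups, Timd4, Axl and Apoe were lower, and Cd68 overlapped.

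Genes of the same pathways outside the list gave a mixed picture. Of 45 such genes tested, 0 passed by limma in any of the 3 comparisons with all libraries; at an unadjusted p under 0.05, 24 were higher and 1 lower in the ΔNp73-labelled group than in control (11.4% and 9.83% of all genes), and 4 were higher and 1 lower in the ΔNp63-labelled group (5.96% and 7.03% of all genes). The counts above control that follow stand beside 43.3% of all genes in the ΔNp73-labelled group and 47.7% in the ΔNp63-labelled group, and the counts that rose without replicate 2 beside 16.8% and 11.7%. All these pathway counts include Csf2, Stab1, Stab2, Cd300lb, Trem1 and Clec5a. These genes entered the test through the deletion groups alone, being below 1 FPKM in both controls. The filter thus favoured values above control for them, and counts without them are not given. Among 7 ligands of these receptors, 6 lay above control in the ΔNp73-labelled group and 5 in the ΔNp63-labelled group; without ΔNp63-labelled replicate 2, 4 and 3 rose. Gas6, the bridging protein of Mertk and Axl, averaged 64.7 ± 7.89 FPKM in the ΔNp73-labelled group, 45.9 ± 34.6 FPKM in the ΔNp63-labelled group and 39.3 ± 1.80 FPKM in control (SD, n = 3, 3 and 2). Cd47, the ligand of Sirpa on other cells, averaged 53.1 ± 1.19 FPKM in the ΔNp73-labelled group, 40.9 ± 12.04 FPKM in the ΔNp63-labelled group and 57.7 ± 1.04 FPKM in control, and Mfge8, a bridging protein for phosphatidylserine, 20.2 ± 3.42 FPKM in the ΔNp73-labelled group, 16.6 ± 4.42 FPKM in the ΔNp63-labelled group and 15.1 ± 0.495 FPKM in control. The wide ΔNp63-labelled spread of Gas6 came from replicate 2, at 7.13 FPKM.

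Among 15 tested partners and receptors of uptake, 14 lay above control in each deletion group, and 10 (ΔNp73-labelled) and 7 (ΔNp63-labelled) of 14 rose without replicate 2. Stab1, Stab2, Cd300lb, Trem1 and Clec5a are in these counts and entered the test through the deletion groups alone. Itgb2, the common chain of the leukocyte integrins, averaged 92.8 ± 3.42 FPKM in the ΔNp73-labelled group, 67.1 ± 36.9 FPKM in the ΔNp63-labelled group and 58.4 ± 2.76 FPKM in control. Scarb1, a lipoprotein receptor, averaged 14.6 ± 0.759 FPKM in the ΔNp73-labelled group, 13.1 ± 0.923 FPKM in the ΔNp63-labelled group and 8.50 ± 0.574 FPKM in control, and Fcgrt, which recycles IgG, 14.1 ± 5.27 FPKM in the ΔNp73-labelled group, 12.1 ± 2.94 FPKM in the ΔNp63-labelled group and 7.59 ± 1.28 FPKM in control. Of 14 signalling genes, 13 and 9 lay above control in the ΔNp73-labelled and ΔNp63-labelled groups, and 10 and 8 rose without replicate 2. Of the 3 most abundant, Ptpn6 rose in the ΔNp73-labelled group without replicate 2 (log2FC 0.40, limma adjusted p = 0.0487), and Dock2 and Vav1 did not pass. Ptpn6, the phosphatase SHP-1, averaged 80.2 ± 9.66 FPKM in the ΔNp73-labelled group, 61.7 ± 24.8 FPKM in the ΔNp63-labelled group and 60.2 ± 5.83 FPKM in control. Dock2, a Rac activator of leukocytes, averaged 30.4 ± 2.32 FPKM in the ΔNp73-labelled group, 24.7 ± 7.78 FPKM in the ΔNp63-labelled group and 27.2 ± 0.820 FPKM in control. Vav1, another activator of Rac, averaged 17.2 ± 2.21 FPKM in the ΔNp73-labelled group, 16.7 ± 3.57 FPKM in the ΔNp63-labelled group and 18.8 ± 1.35 FPKM in control. All 3 are also genes of T cells, which make up the tumour.

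Of 9 further transcription factors, 8 and 7 lay above control in the ΔNp73-labelled and ΔNp63-labelled groups, and 3 and 2 rose without replicate 2. Irf8, which directs monocyte development, averaged 36.1 ± 1.13 FPKM in the ΔNp73-labelled group, 24.5 ± 12.5 FPKM in the ΔNp63-labelled group and 17.001 ± 0.0819 FPKM in control. Runx1, which also acts in thymocytes, averaged 16.2 ± 2.29 FPKM in the ΔNp73-labelled group, 16.7 ± 3.23 FPKM in the ΔNp63-labelled group and 25.6 ± 1.98 FPKM in control and was the 1 gene of the pathway lists that fell without replicate 2, in the ΔNp73-labelled comparison (log2FC -0.64, limma adjusted p = 0.0354).

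Markers of other cells moved with the same groups, and 43.3% (ΔNp73-labelled) and 47.7% (ΔNp63-labelled) of all genes lay above control. Of 15 thymocyte and T cell genes, 15 lay below control in the ΔNp73-labelled group and 14 in the ΔNp63-labelled group. Without replicate 2, 1 of the 15 lay above control in the ΔNp63-labelled group. Their summed level was 2407 to 3897 FPKM in the ΔNp73-labelled libraries, 2484 to 4555 in the ΔNp63-labelled libraries and 5367 to 6142 in the controls. All 9 fibroblast genes lay above control in both groups, or 8 of 9 in the ΔNp63-labelled group without replicate 2. Their sum was 234 to 329 FPKM in the ΔNp73-labelled libraries, 113 to 214 in the ΔNp63-labelled libraries and 79.6 to 81.2 in the controls. Neutrophil genes were above control for 11 of 11 in the ΔNp73-labelled group and 5 of 11 in the ΔNp63-labelled group, or 9 of 11 without replicate 2. Their sum was 948 to 1587 FPKM in the ΔNp73-labelled libraries, 56.6 to 777 in the ΔNp63-labelled libraries (56.6 in replicate 2) and 176 to 680.1 in the controls. The part of these cells in the differences of the macrophage genes was not tested.

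Genes of closer relatives of macrophages also lay above control. The 6 circulating monocyte genes summed to 417 to 993 FPKM in the ΔNp73-labelled libraries, 474 to 883 in the ΔNp63-labelled libraries and 178 to 191 in the controls, with 6 and 5 of 6 above control, or 6 and 6 without replicate 2. Cd5l, Nr1h3 and Spic, the 3 measured genes of a liver-type resident macrophage list, were all above control in both groups. Their sums were 38.6 to 73.9, 15.2 to 51.0 and 12.6 to 12.8 FPKM in the ΔNp73-labelled, ΔNp63-labelled and control libraries. Without Clec4f and Vsig4 of that list, these 3 genes do not show a liver-type identity. Nr1h3 was also counted among the transcription factors above. Endothelial genes were above control for 8 of 8 and 6 of 8, dendritic cell genes for 5 of 7 and 4 of 7, and B cell genes for 5 of 7 and 1 of 7, in the ΔNp73-labelled and ΔNp63-labelled groups in that order; without replicate 2 the ΔNp63-labelled counts were 7, 6 and 7. Their sums were 40.8 to 72.5, 33.8 to 43.1 and 26.5 to 35.1 FPKM for endothelium, 78.5 to 95.3, 21.5 to 112 and 71.7 to 86.8 FPKM for dendritic cells, and 41.4 to 45.0, 4.76 to 68.9 and 34.1 to 35.7 FPKM for B cells, with the control range last. Of 3 erythroid genes, 0 were above control in the ΔNp73-labelled group and 1 in the ΔNp63-labelled group (14.0 to 78.4, 29.9 to 568 and 80.5 to 309.7 FPKM). No listed gene with an entry was at 0 in every library, while Ly6g, Zbtb46, Clec4f, Vsig4 and Klf1 were not analysed here. With all libraries, 1 fibroblast gene in the ΔNp73-labelled group was the only gene of these 9 lists past the limma threshold.

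Other fits moved the number of calls more than the values. With limma's array weights, which give libraries far from the fit less weight, the calls covered 36 members in the ΔNp73-labelled group (23.5% of all genes called higher) and 34 in the ΔNp63-labelled group (16.3%), and Sirpa was the 1 member called between ΔNp73-labelled and ΔNp63-labelled. In a fit of the ΔNp73-labelled and control libraries alone, 32 members were called higher (15.9% of all genes).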

How the data were processed

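Total RNA of 8 thymic lymphoma libraries was extracted with TRIZOL LS and prepared with an Illumina TruSeq kit, per the labels' protocols. The submitters' processing notes name TopHat2 2.0, Cufflinks 2.0 and the mouse build mm9, without the role of each. The authors deposited 1 table of FPKM per RefSeq transcript, quantile-normalised between libraries, with 16589 entries under 13681 symbols. The normalisation hides changes in total RNA. The table holds no counts, so depth and counting precision are unknown.

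For each symbol the entry with the highest mean over all libraries was kept. Genes at 1 FPKM or more in at least 2 libraries were tested with limma 3.58.1 (R 4.3.3) on log2(FPKM + 1) (intensity trend, 5 residual degrees of freedom, two-sided, Benjamini-Hochberg over 12921 genes, threshold 0.05). The fit was run on simulated data with a capped spread and no outlying library. That run does not bear on calls that depend on ΔNp63-labelled replicate 2. Log2FC on this scale understates changes of low genes. Members and lists were chosen with earlier results of these data known. Full values are given for the 3 most abundant members per role, the extremes and members whose deletion groups do not overlap; pathway genes by the 3 most abundant per list, of which 1 is not reported here. Groups follow the labels, and replicates are numbered in accession order. Alternatives were another pseudocount and filters, summed entries, no trend, array weights, each library left out and, chosen after seeing the data, fits of 2 groups. Shared sequence between related genes was measured as 50-base words of annotated transcripts on GRCm38.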

Additional observations from a re-analysis of the deposited data

How the results depend on the processing

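The number of calls depended on the fit, and the values did so less. With all libraries 12 of all genes were called for ΔNp63-labelled against control, 7 for ΔNp73-labelled against control and 7 for ΔNp73-labelled against ΔNp63-labelled, with 0 members in each. With array weights these were 4480, 6569 and 344 genes, and 34, 36 and 1 members. Fits of 2 groups alone called 5 genes for ΔNp63-labelled against control, and 3890 genes and 32 members for ΔNp73-labelled against control. A pseudocount of 0.1 called 18 genes and 1 member, Fcgr4, for ΔNp73-labelled against control. Over the fits that leave out 1 library, ΔNp63-labelled against control had 3 to 2882 genes and 0 to 30 members called, ΔNp73-labelled against control 0 to 4212 genes and 0 to 34 members, and ΔNp73-labelled against ΔNp63-labelled 6 to 19 genes and 0 members. The highest values were without ΔNp63-labelled replicate 2; the 0 genes for ΔNp73-labelled were without control replicate 1 or 2 (limma, 1066 and 1254 genes at an unadjusted p under 0.05). The median log2FC of the members stayed at 0.74 to 1.32 for ΔNp63-labelled against control, 1.56 to 1.85 for ΔNp73-labelled against control and 0.31 to 0.90 for ΔNp73-labelled against ΔNp63-labelled when 1 library was left out. No filter, a minimum of 5 FPKM, summed entries and no trend kept each count of calls within 1.5 times.

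Signs turned over in ΔNp63-labelled against control for Apoe (-0.064 to 0.78) and Timd4 (-0.10 to 0.81), both without ΔNp63-labelled replicate 1. In ΔNp73-labelled against ΔNp63-labelled, leaving out 1 library gave Aif1 -0.17 to 0.71, Csf2ra -0.11 to 0.71, Hmox1 -0.26 to 1.46, Itgax -0.0028 to 0.26, Msr1 -0.31 to 1.23, Timd4 -0.26 to 0.65 and Tyrobp -0.027 to 1.199, all negative without ΔNp63-labelled replicate 2, and Gpnmb -0.017 to 0.72, negative without ΔNp73-labelled replicate 1. With array weights Aif1 was at -0.13, Csf2ra at -0.22, Hmox1 at -0.45, Lgals3 at -0.033, Msr1 at -0.20, Timd4 at -0.38 and Tyrobp at -0.10 in that comparison. The cause was not tested. For ΔNp73-labelled against control no member of the 36 turned sign in any of these fits. No paired analysis was possible because the labels give no replicate numbers or pairs. The depth of the libraries is unknown, and 2 controls limit every comparison with them.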
